A study of Mus musculus with 29 samples.

Results

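Cells sense extracellular acid through proton-sensing receptors and keep their own pH in range with carbonic anhydrases and bicarbonate transporters. The genes described here are 6 of these, chosen by name with earlier results of these data known. They are the receptor genes Gpr65 and Gpr132, the carbonic anhydrase genes Car2 and Car5b, and the bicarbonate transporter genes Slc4a7 and Slc4a2. They were found by matching the Ensembl identifiers of the count tables to mouse gene symbols. All 6 were among the 55414 genes counted, and all 6 were among the 14375 genes that passed the filter on low counts.

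The libraries came from mouse spleen CD4+ T cells of the strain C57BL/6-Foxp3tm1Flv/J, whose Foxp3 locus also gives a red fluorescent protein (RFP). The series asked how acidity bears on the formation of Foxp3+ regulatory T cells. Every culture held anti-CD3 at 1.25 µg/ml, anti-CD28 at 2.5 µg/ml, IL-2 at 50 IU/ml, 2-mercaptoethanol at 50 µM and D-glucose at 0.5 mM. TGF-beta at 3 ng/ml and lactic acid at 10 mM were each added or left out. After culture the cells were sorted as RFP+ (Treg) or RFP- (Tcon). The 10 groups were 72 h Treg with TGF-beta and lactic acid, 72 h Treg with TGF-beta, 72 h Tcon with TGF-beta and lactic acid, 72 h Tcon with TGF-beta, 72 h Tcon with lactic acid, 72 h Tcon with neither, and the same 4 kinds of Tcon culture at 24 h. Each group had 3 libraries, except 72 h Tcon with neither, which had 2. Replicate 1 came from a male mouse and replicates 2 and 3 from female mice. The labels give no medium pH, and they do not say whether RFP+ and RFP- cells were sorted from the same culture.

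GPR65 couples to a G protein that raises cyclic AMP when the outside of the cell becomes acid. GPR132 is placed in the same receptor family by sequence, and its own response to protons is weak. Carbonic anhydrases interconvert carbon dioxide and bicarbonate with release or uptake of a proton: carbonic anhydrase 2 works in the cytosol and carbonic anhydrase 5B in the mitochondrion. SLC4A7 brings sodium and bicarbonate into the cell and so counters acid, whereas SLC4A2 exchanges bicarbonate for chloride and so loads acid.

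Gene counts per library ran between 9754511 and 14315313, with a median of 12106958. Markers were set beside the labels. Foxp3, the gene behind the sort, lay between 153 and 573 CPM (counts scaled to a library total of the same size) in the 6 Treg libraries, between 15.4 and 59.8 CPM in the 6 Tcon libraries kept 72 h with TGF-beta, and at no more than 1.97 CPM in the 11 libraries without TGF-beta. In the 6 Tcon libraries kept 24 h with TGF-beta, Foxp3 lay between 44.2 and 73.3 CPM. Its median there was 54.7 CPM, above the 35.7 CPM of the 72 h Tcon libraries with TGF-beta. These values bear on the gate and the TGF-beta labels, and the lactic acid and time labels were not checked by a marker. Cd4, the co-receptor that defines these cells, lay between 419 and 669 CPM in all 29 libraries. The summed level of 6 B cell markers was at most 5.14 CPM, that of 7 myeloid markers at most 1.73 CPM, and that of 6 erythroid markers at most 0.579 CPM in any library. CPM values here use library totals scaled by trimmed mean of M values (TMM), and a call is an adjusted p below 0.05 in edgeR's quasi-likelihood test over all 14375 genes.

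Car2 and Car5b varied most in level over the libraries, and the receptor and transporter genes varied less. Between the highest and the lowest library the level differed 128-fold for Car2 and 48.5-fold for Car5b, against 3.61-fold for Gpr65, 2.65-fold for Slc4a7, 2.37-fold for Slc4a2 and 2.05-fold for Gpr132. Per kb of exon, the mean level over all libraries was 29.4 CPM per kb for Gpr132, 24.8 for Gpr65, 10.7 for Slc4a7, 9.77 for Slc4a2, 4.17 for Car2 and 0.513 for Car5b. The receptors thus stood highest per length and Car5b lowest. Car2 and Car5b had 4 counts in their lowest libraries, so counting error is large for both genes at 24 h and in cells without TGF-beta.

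**Figure D1:**
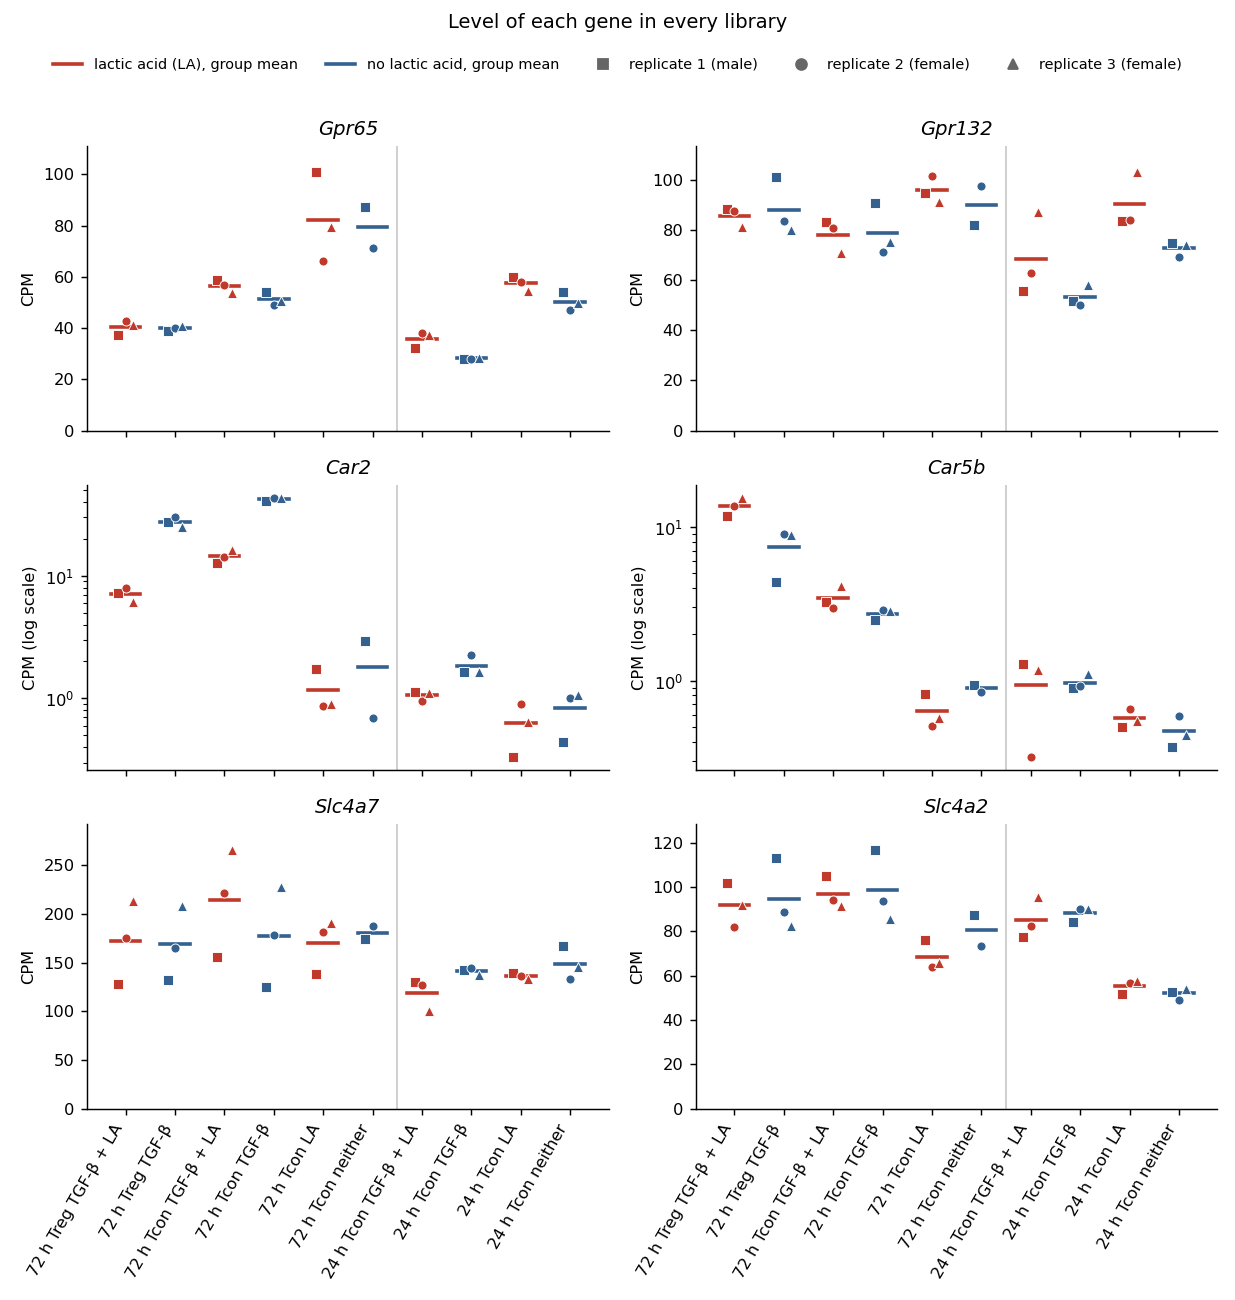
Level of each gene in CPM for every library (points; square, replicate 1 from a male mouse; circle and triangle, replicates 2 and 3 from female mice) with the group mean (bar), red with lactic acid and blue without. Car2 and Car5b are on a log scale and stand apart at 72 h with TGF-beta, where lactic acid groups of Car2 lie below and those of Car5b above the groups without it.

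Car2 was lower with lactic acid in both kinds of 72 h cell kept with TGF-beta, and no other member passed the test in any of the 5 lactic acid comparisons. In Treg, 1 of 6 members was called, against 3.51% of all genes tested, and the median log2 fold change was -0.01 for the members and 0.01 for all genes. In 72 h Tcon with TGF-beta, 1 of 6 was called, against 2.16% of all genes, with medians of 0.06 and 0.00. Without TGF-beta at 72 h, 0 of 6 members were called, against 0.0696% of genes. At 24 h, 0 of 6 were called with TGF-beta, against 0.23% of genes, and 0 of 6 without it, against 0.0835%. DESeq2 called 0 of 6 members in each of these last 3 comparisons as well. Their unadjusted p was below 0.05 for 0 members at 72 h without TGF-beta, for 3 at 24 h with TGF-beta and for 1 at 24 h without it. With the replicate number as a block, which compares libraries of the same number, the calls were 2 of 6 in Treg (19.7% of genes), 2 of 6 in 72 h Tcon with TGF-beta (15.4%), 0 of 6 at 72 h without TGF-beta (3.42%), 1 of 6 at 24 h with TGF-beta (6.7%) and 0 of 6 at 24 h without it (4.27%).

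**Figure D2:**
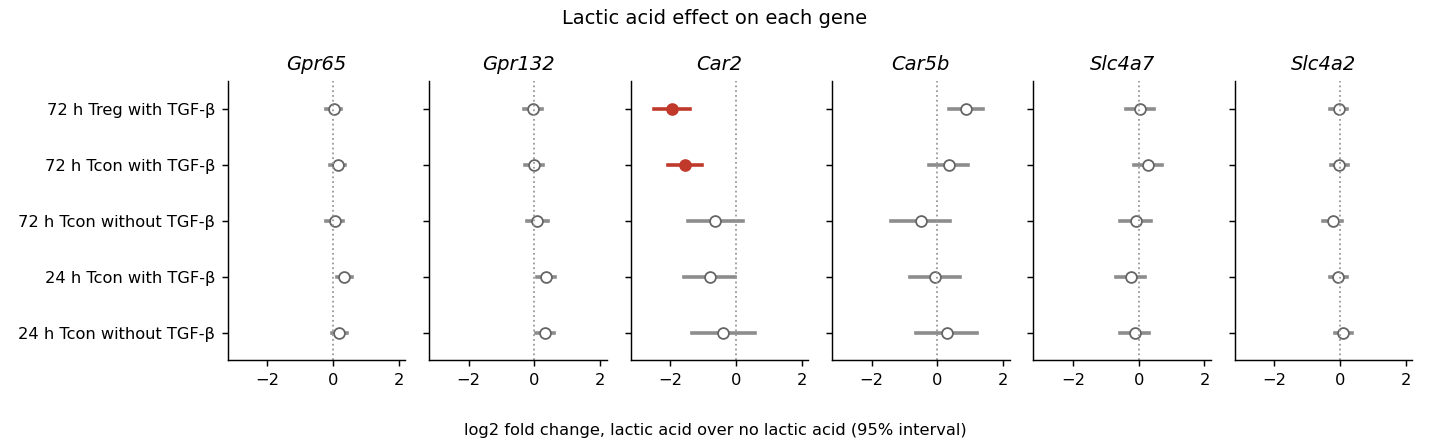
Log2 fold change, lactic acid over no lactic acid, for each gene in the 5 lactic acid comparisons, with the 95% interval (filled red, adjusted p below 0.05; open, not called). Car2 in 72 h Treg and 72 h Tcon with TGF-beta, at -1.94 and -1.54, holds both filled points.

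Car2, on chromosome 3, encodes the fast cytosolic carbonic anhydrase. In 72 h Treg kept with TGF-beta it was at 7.27, 7.97 and 6.10 CPM with lactic acid, against 27.2, 29.8 and 24.9 CPM without it. Every lactic acid library was below every library without it, and groups lay apart in either direction for 17.9% of all genes in that comparison. The level averaged 7.11 ± 0.95 CPM with lactic acid and 27.3 ± 2.43 CPM without it (SD, n = 3 each), a 3.83-fold lower level with a log2 fold change of -1.94 ± 0.26 (SE, adjusted p = 0.000158 by edgeR's quasi-likelihood test). Its log2 fold change ranked 207 from the lowest among the 14375 genes tested in that comparison. In bulk libraries, a smaller share of cells that express Car2 and less Car2 RNA per cell cannot be told apart.

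The same gene was at 12.8, 14.3 and 16.1 CPM in 72 h Tcon with TGF-beta and lactic acid, against 40.4, 42.9 and 42.6 CPM in 72 h Tcon with TGF-beta alone. These groups did not overlap either, as held for 16.8% of all genes in that comparison. The log2 fold change was -1.54 ± 0.25, a 2.92-fold lower level (edgeR adjusted p = 0.000921). Both Car2 calls held with each of the 6 libraries left out in turn, with log2 fold changes between -2.03 and -1.84 in Treg and between -1.63 and -1.46 in Tcon. The difference between the lactic acid effects in Treg and in Tcon was -0.39 on the log2 scale, with a 95% interval from -1.12 to 0.34 (adjusted p = 1).

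Where TGF-beta was absent or the culture was 24 h old, Car2 was low with and without lactic acid. At 72 h without TGF-beta it was at 1.72, 0.868 and 0.899 CPM with lactic acid, against 2.91 and 0.691 CPM without it. These ranges overlapped. The log2 fold change of -0.62 (adjusted p = 0.68) had a 95% interval from -1.47 to 0.22. It was 0.72 without replicate 1 and -1.35 without replicate 2 of the group with neither, each fit leaving 1 library in that group. At 24 h Car2 was at 1.12, 0.956 and 1.10 CPM with TGF-beta and lactic acid, against 1.63, 2.26 and 1.64 CPM with TGF-beta alone. The lactic acid libraries lay below the others, as either order of groups without overlap did for 19.3% of all genes, and the log2 fold change of -0.80 was not called (adjusted p = 0.59). At 24 h without TGF-beta, Car2 was at 0.334, 0.903 and 0.638 CPM with lactic acid, against 0.445, 1.00 and 1.07 CPM with neither, and the groups overlapped. The lactic acid effect on Car2 with TGF-beta minus that without it at 72 h was -0.92 (95% interval -1.92 to 0.08, adjusted p = 0.68), and the effect at 72 h minus that at 24 h with TGF-beta was -0.75 (95% interval -1.69 to 0.19, adjusted p = 0.899).

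Several cell and RNA measures were set beside these groups. The CD4 T cell markers in Treg and the mitochondrial share in 72 h Tcon with TGF-beta lay apart between the groups. The other sums given here overlapped. The summed level of 6 CD4 T cell markers lay between 2071 and 2148 CPM in Treg with lactic acid and between 1828 and 2021 CPM in Treg without it. The summed level of 6 CD8 and NK cell markers lay between 59.6 and 98.8 CPM in Treg with lactic acid and between 33.0 and 73.4 CPM in Treg without it, and in 72 h Tcon with TGF-beta it averaged 93.8 CPM with lactic acid and 58.0 CPM without. Among those 6 markers Eomes averaged 48.6 CPM over all libraries, Cd8b1 7.88 CPM, Cd8a 4.10 CPM and Klrd1 3.43 CPM, while Ncr1 was at 0 in 15 of 29 libraries and Klrb1c at 0 in 7. Klrd1 rose with lactic acid in 72 h Tcon with TGF-beta (log2 fold change 1.30, adjusted p = 0.0271). Mitochondrial genes held between 1.02% and 1.69% of counts in 72 h Tcon with TGF-beta and lactic acid, and between 0.826% and 0.966% in 72 h Tcon with TGF-beta alone. The summed level of 6 markers of erythroid cells, which are rich in carbonic anhydrase 2, lay between 0.0817 and 0.364 CPM in Treg with lactic acid and between 0.174 and 0.304 CPM in Treg without it, and 0 of the 6 passed the filter on low counts. The part of these measures in the Car2 difference was not tested.

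Car5b, on chromosome X, encodes a mitochondrial carbonic anhydrase. It followed another order than Car2, being highest in Treg with lactic acid. It was at 11.9, 13.7 and 15.5 CPM in 72 h Treg with TGF-beta and lactic acid, against 4.40, 9.07 and 8.86 CPM in 72 h Treg with TGF-beta alone. No library of the first group fell within the range of the other, as held for 17.9% of all genes in that comparison. The log2 fold change of 0.88 ± 0.25 missed the threshold (adjusted p = 0.0564, 95% interval 0.35 to 1.40). It passed with the replicate block (adjusted p = 0.00103), with DESeq2 (adjusted p = 0.0339) and with no filter on low counts (adjusted p = 0.0468). The lowest value, 4.40 CPM, was that of the male replicate, and without it the log2 fold change was 0.61 (adjusted p = 0.287).

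In 72 h Tcon with TGF-beta, Car5b was at 3.27, 2.98 and 4.16 CPM with lactic acid, against 2.46, 2.89 and 2.85 CPM without it. The groups lay close without overlap, as held for 16.8% of all genes, and the log2 fold change of 0.35 was not called (adjusted p = 0.658). The remaining 6 groups held Car5b at no more than 1.29 CPM in any library, and the log2 fold changes with lactic acid there were -0.51 at 72 h, -0.07 at 24 h with TGF-beta and 0.29 at 24 h without it, none of them called. The lactic acid effect in Treg minus that in Tcon was 0.53 (95% interval -0.25 to 1.32, adjusted p = 1). The promoter of Car5b is shown because the gene was called as higher with TGF-beta at 72 h. TGF-beta acts through Smad proteins, which are known to bind the short Smad box GTCT, or AGAC on the other strand. It spans chrX:164027961-164028260 on the minus strand of GRCm38.p6 in RefSeq, is given 5′ to 3′ with 250 bases before and 50 after the start, and has Smad boxes in capitals.
Car5b: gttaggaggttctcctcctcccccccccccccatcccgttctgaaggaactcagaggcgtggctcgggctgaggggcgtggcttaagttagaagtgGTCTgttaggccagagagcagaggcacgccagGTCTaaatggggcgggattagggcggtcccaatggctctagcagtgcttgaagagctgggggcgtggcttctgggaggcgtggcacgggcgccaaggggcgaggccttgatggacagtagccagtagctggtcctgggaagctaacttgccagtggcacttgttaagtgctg
It holds 2 Smad boxes and 12 CpG pairs at 61.7% GC. At least 1 Smad box stands in 88% of the 32851 promoters of the same length, so its presence is common. The tandem box GTCTAGAC, found in 0.213% of promoters on either strand, was not in this window.

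The carbonic anhydrase list of 16 genes showed that Car2 carried most of the change of the family at 72 h with TGF-beta. Per kb of exon, Car2 made up 23.6% of the summed level of the list in Treg with lactic acid, against 58.6% in Treg without it. In 72 h Tcon with TGF-beta its share was 44.2% with lactic acid, against 71.9% without. Car5b had 17.2% of the summed level in Treg with lactic acid, against 5.92% in Treg without it. The summed level itself was 12.5 ± 0.84 CPM per kb in Treg with lactic acid and 19.4 ± 2.29 CPM per kb in Treg without it, and 13.4 ± 1.43 CPM per kb in 72 h Tcon with TGF-beta and lactic acid and 24.3 ± 2.79 CPM per kb in 72 h Tcon with TGF-beta alone (SD, n = 3 each). Car12, a carbonic anhydrase of the cell surface, was the main other gene of the list, with 68.2% of the summed level in 72 h Tcon with lactic acid and 62.5% in 72 h Tcon with neither. Its log2 fold change with lactic acid lay between -0.28 and 0.32 in the 5 comparisons, and none was called (lowest adjusted p = 0.807). Of the 16 genes, 7 passed the filter on low counts, and Car2 was the only call, lower in Treg and in 72 h Tcon with TGF-beta.

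**Figure D3:**
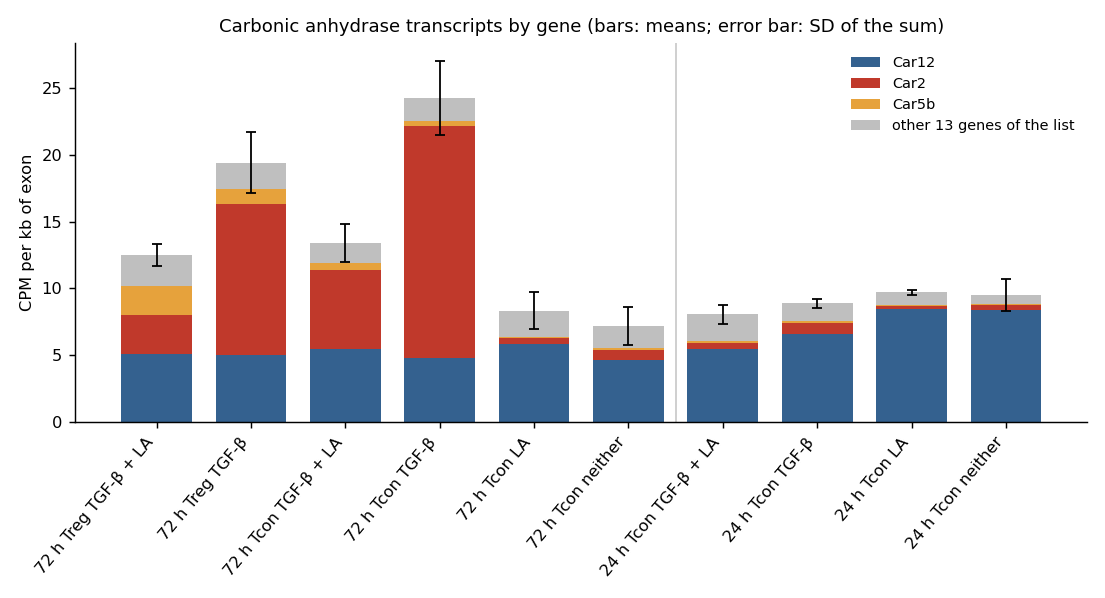
Mean level of carbonic anhydrase transcripts in CPM per kb of exon for each group, stacked by gene, with the SD of the summed level as the error bar. Car2 fills 58.6% of the bar for Treg with TGF-beta and 71.9% of that for 72 h Tcon with TGF-beta, and less of the bars beside them with lactic acid.

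The proton-sensing receptors did not pass the test with lactic acid. Gpr65, on chromosome 12, had log2 fold changes between 0.02 and 0.35 over the 5 comparisons, with 95% intervals that together reach from -0.21 to 0.58, and adjusted p between 0.305 and 0.947. The largest of these was at 24 h with TGF-beta, where Gpr65 was at 32.1, 38.1 and 37.3 CPM with lactic acid, against 28.0, 28.1 and 28.4 CPM without it. The groups did not overlap, as held for 19.3% of all genes, and the adjusted p was 0.305, or 0.057 with the replicate block. In Treg, Gpr65 was at 37.2, 42.9 and 41.4 CPM with lactic acid, against 38.7, 40.0 and 40.9 CPM without it, within 1 range.

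Gpr132, also on chromosome 12, was at 55.7, 62.6 and 87.3 CPM at 24 h with TGF-beta and lactic acid, against 51.7, 50.2 and 58.2 CPM with TGF-beta alone. The third lactic acid library stood above the rest and the groups overlapped. The log2 fold change of 0.36 was not called (adjusted p = 0.413) but passed with the replicate block (adjusted p = 0.0334). At 24 h without TGF-beta Gpr132 was at 83.6, 83.7 and 103 CPM with lactic acid, against 74.8, 69.2 and 74.1 CPM with neither. These groups did not overlap, as held for 21.9% of all genes, and the log2 fold change of 0.31 was not called (adjusted p = 0.615, or 0.0765 with the block). At 72 h its log2 fold changes were -0.04 in Treg, -0.01 in Tcon with TGF-beta and 0.09 in Tcon without it.

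Gpr4, another proton-sensing receptor, averaged 0.289 CPM over all libraries. Of 17 genes of cyclic AMP signalling, the pathway below GPR65, 1 was called with lactic acid in Treg, where 3.51% of all genes were called, and 1 in 72 h Tcon with TGF-beta, where 2.16% were. Both calls were Pde7a, which encodes an enzyme that breaks down cyclic AMP, at log2 fold changes of -0.48 (adjusted p = 0.0128) and -0.44 (adjusted p = 0.0269). Of 12 genes known to be induced by cyclic AMP, 11 were tested and 3 were lower in Treg with lactic acid, and 1 was lower in 72 h Tcon with TGF-beta and lactic acid. In Treg these were Nr4a1, a nuclear receptor induced by antigen receptor signals too, at a log2 fold change of -0.56 (adjusted p = 0.0449), its relative Nr4a2 at -0.90 (adjusted p = 0.00626), and Rgs2, a regulator of G protein signalling, at -1.47 (adjusted p = 0.0194). In 72 h Tcon with TGF-beta it was Nr4a2, at -0.76 (adjusted p = 0.0195). The median log2 fold change of the 11 genes was -0.53 in Treg and -0.48 in 72 h Tcon with TGF-beta, beside 0.01 and 0.00 for all genes. It was -0.24 at 72 h without TGF-beta, and of the other sign at 24 h, at 0.11 with TGF-beta and 0.30 without it. Of either list, 0 genes were called in these 3 comparisons, in which at most 0.23% of all genes were.

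The bicarbonate transporters did not pass the test with lactic acid. Slc4a7, on chromosome 14, was at 156, 222 and 266 CPM in 72 h Tcon with TGF-beta and lactic acid, against 125, 178 and 228 CPM without lactic acid. The groups overlapped, yet each lactic acid library was above the library of the same number. The log2 fold change of 0.28 was not called (adjusted p = 0.616, 95% interval -0.15 to 0.70) and passed with the replicate block (adjusted p = 0.0235). In Treg it was at 129, 175 and 214 CPM with lactic acid, against 133, 165 and 209 CPM without it, over the same range. Replicate 1, from male mice, was the lowest library of Slc4a7 in all 6 groups at 72 h, but at 24 h it was the lowest in 0 of 4 groups and the highest in 3.

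Slc4a2, on chromosome 5, was at 102, 82.1 and 92.0 CPM in Treg with lactic acid, against 113, 88.9 and 82.5 CPM in Treg without it. The groups overlapped, and the log2 fold changes over the 5 lactic acid comparisons lay between -0.23 and 0.09 (lowest adjusted p = 0.646), within 95% intervals that together reach from -0.51 to 0.35. Replicate 1 was the highest library of Slc4a2 in all 6 groups at 72 h, but at 24 h it was the highest in 0 of 4 groups and the lowest in 3.

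Of the 10 Slc4 transporter genes, 5 passed the filter on low counts, the members Slc4a7 and Slc4a2 among them. So did 4 of 11 Slc26 anion exchanger genes and 4 of 11 genes of acid-activated and proton channels. Of all these, 0 were called with lactic acid. Of 14 genes of sodium-proton exchangers and their partners, 11 passed the filter. Slc9a7, an exchanger of the trans-Golgi network, averaged 3.89 ± 0.89 CPM in Treg with lactic acid and 7.45 ± 0.97 CPM in Treg without it, a log2 fold change of -0.93 (adjusted p = 0.0299). In 72 h Tcon with TGF-beta, Slc9a7 averaged 3.21 ± 0.24 CPM with lactic acid and 6.42 ± 0.87 CPM without it, a log2 fold change of -0.997 (adjusted p = 0.0296).

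Across all 6 members, the lactic acid effect did not differ by condition at the threshold. Over 5 tests of a difference of lactic acid effects, 0 of 30 member tests were called, 0 had an unadjusted p below 0.05 and DESeq2 called 0. Of all genes, 0% were called for Treg minus Tcon, 0.104% for with minus without TGF-beta at 72 h and 0% at 24 h, and 0.0278% for 72 h minus 24 h with TGF-beta and 0% without it. With the replicate block these shares were 0%, 4.54%, 0%, 3.36% and 4.69% in the same order. The block called 2 of the 30, both Slc4a7. The effect with TGF-beta minus that without it at 72 h was 0.55 on the log2 scale with the block (adjusted p = 0.0147), against 0.37 without it (adjusted p = 0.853). The effect at 72 h minus that at 24 h with TGF-beta was 0.54 with the block (adjusted p = 0.0173), against 0.52 without it (adjusted p = 0.884).

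More members were called for TGF-beta than for lactic acid, and so were larger shares of all genes. For lactic acid that share was at most 3.51%, and for TGF-beta it was at least 11.3%. In Tcon at 72 h with lactic acid 4 of 6 members were called, against 45% of all genes, and without lactic acid 3 of 6, against 24.5%. At 24 h the counts were 2 of 6 with lactic acid, against 12.4%, and 3 of 6 without it, against 11.3%. With the replicate block the counts were 6, 5, 3 and 4 of 6, against 60%, 45.4%, 32.4% and 31.7% of all genes in the same order. These comparisons use the Tcon libraries of the lactic acid comparisons, so the 2 sets are not independent. Among the 6 markers of CD8 and NK cells, Eomes had the highest mean level over all libraries. The summed level of these 6 markers moved with these groups too. It averaged 93.8 CPM with TGF-beta and 20.2 CPM without it at 72 h with lactic acid, 58.0 and 23.5 CPM at 72 h without lactic acid, 20.7 and 137 CPM at 24 h with lactic acid, and 17.1 and 114 CPM at 24 h without lactic acid, so it was higher with TGF-beta at 72 h and lower at 24 h. At 24 h the summed level of the 6 CD4 T cell markers averaged 2723 CPM with TGF-beta and 2965 CPM without it in cells with lactic acid, and 2623 and 2894 CPM in cells without lactic acid. Their part in the TGF-beta differences was not tested.

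Gpr65 was lower with TGF-beta in all 4 of these comparisons. At 24 h without lactic acid it was at 28.0, 28.1 and 28.4 CPM with TGF-beta, against 54.0, 47.0 and 49.7 CPM with neither. The groups did not overlap, as held for 41.6% of all genes in that comparison, and the log2 fold change was -0.84 ± 0.11 (adjusted p = 1.47e-05), a 1.78-fold lower level. It was -0.68 at 24 h with lactic acid (adjusted p = 0.00015), -0.63 at 72 h without it (adjusted p = 0.000523) and -0.54 at 72 h with it (adjusted p = 0.000411). All 4 calls held with each library left out in turn, while the call at 72 h without lactic acid was lost when its own groups were fitted alone (adjusted p = 0.0554). The highest Gpr65 library was replicate 1 of 72 h Tcon with lactic acid, at 101 CPM, where the other libraries were at 66.3 and 79.6 CPM.

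The promoter of Gpr65 is shown beside that of Car5b because the gene was called in the other direction with TGF-beta. It spans chr12:98268385-98268684 on the plus strand of GRCm38.p6 in RefSeq, with Smad boxes in capitals.
Gpr65: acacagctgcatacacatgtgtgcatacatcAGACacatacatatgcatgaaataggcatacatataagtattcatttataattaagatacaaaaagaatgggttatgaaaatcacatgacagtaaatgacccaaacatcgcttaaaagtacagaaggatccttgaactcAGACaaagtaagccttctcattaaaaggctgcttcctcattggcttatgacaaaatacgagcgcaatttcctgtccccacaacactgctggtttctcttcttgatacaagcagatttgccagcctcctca
It holds 2 Smad boxes and 3 CpG pairs at 38.3% GC, so the count of boxes is the same in both promoters, while the base composition differs.

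Car2 rose most with TGF-beta. At 72 h without lactic acid the values of 40.4, 42.9 and 42.6 CPM with TGF-beta stood against 2.91 and 0.691 CPM with neither, a log2 fold change of 4.56 ± 0.36 (adjusted p = 2.43e-09). With lactic acid the log2 fold change at 72 h was 3.64 ± 0.32 (adjusted p = 4.38e-09). At 24 h it was 1.15 without lactic acid (adjusted p = 0.0563, or 0.03 with the replicate block) and 0.75 with it (adjusted p = 0.304). The 24 h value without lactic acid also passed with DESeq2 (adjusted p = 0.0202) and with no filter on low counts (0.0328). It passed with the compared groups alone (0.027) and with no male libraries (0.0446) too. With DESeq2 size-factor scaling or with any 1 library left out it was not called. The TGF-beta effect on Car2 was larger at 72 h than at 24 h, by 3.41 ± 0.54 without lactic acid (adjusted p = 0.000393) and by 2.89 ± 0.58 with it (adjusted p = 0.00138). Without lactic acid 1 of 6 members was called in this test, against 5.73% of all genes, and with lactic acid 2 of 6, against 14.4%. With the replicate block the counts were 2 and 3 of 6, against 19.4% and 33.6% of all genes; the added calls were Slc4a2 without lactic acid (adjusted p = 0.00518, against 0.155 without the block) and Slc4a7 with it (adjusted p = 0.00195, against 0.259 without the block).

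Car5b rose with TGF-beta at 72 h, by 2.46 ± 0.34 with lactic acid (adjusted p = 3.52e-06) and by 1.61 ± 0.37 without it (adjusted p = 0.00267), both on the log2 scale. At 24 h its log2 fold changes of 0.69 with lactic acid and 1.04 without it were not called (adjusted p = 0.29 and 0.109). With lactic acid the TGF-beta effect on Car5b at 72 h exceeded that at 24 h by 1.77 ± 0.54 (adjusted p = 0.0296). That call was lost in 5 of the 12 fits that left out 1 library, with adjusted p up to 0.0848, and in the fit of the compared groups alone (adjusted p = 0.0751). The libraries whose omission lost it were replicate 2 of 24 h Tcon with lactic acid and with TGF-beta and lactic acid, replicates 2 and 3 of 72 h Tcon with lactic acid, and replicate 3 of 72 h Tcon with TGF-beta and lactic acid.

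Slc4a2 was higher with TGF-beta in all 4 comparisons and was called in 3 of them. At 24 h it was at 77.7, 82.4 and 95.6 CPM with TGF-beta and lactic acid, against 51.9, 57.0 and 57.7 CPM with lactic acid, and at 84.4, 90.2 and 90.2 CPM with TGF-beta, against 52.9, 49.3 and 54.1 CPM with neither. Neither pair of groups overlapped, as held for 39% of all genes with lactic acid and for 41.6% without it, and the log2 fold changes were 0.62 ± 0.12 (adjusted p = 0.00115) and 0.76 ± 0.12 (adjusted p = 0.000122). At 72 h the log2 fold change was 0.50 with lactic acid (adjusted p = 0.00207) and 0.30 without it (adjusted p = 0.124, or 0.000721 with the replicate block). Slc4a7 was not called in any of the 4, at log2 fold changes between -0.19 and 0.33; with the block it was called at 72 h with lactic acid (0.31, adjusted p = 0.00271) and at 72 h without it (-0.23, adjusted p = 0.0497).

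Gpr132 was lower with TGF-beta at 24 h without lactic acid, at 51.7, 50.2 and 58.2 CPM against 74.8, 69.2 and 74.1 CPM with neither, a log2 fold change of -0.45 ± 0.13 (adjusted p = 0.0326). The call held in 1 of the 6 fits that left out 1 library, and adjusted p reached 0.125. Leaving out any library but replicate 3 of 24 h Tcon with TGF-beta lost it. At 24 h with lactic acid the log2 fold change was -0.39 (adjusted p = 0.0545, or 0.00213 with the block). That value also passed with DESeq2 (adjusted p = 0.0155), its scaling (0.0306) and no filter on low counts (0.022). It did not pass with the compared groups alone or with no male libraries. At 72 h with lactic acid the log2 fold change was -0.29 (adjusted p = 0.0762, or 0.00963 with the block). Of the 5 tested Slc4 genes, which include the members Slc4a7 and Slc4a2, 4 rose with TGF-beta at 72 h with lactic acid. Without lactic acid 3 of the 5 rose at 72 h. In these comparisons 45% and 24.5% of all genes were called in either direction. Slc4a8, a sodium-driven chloride-bicarbonate exchanger, rose in all 4 comparisons, by 1.72 at 72 h with lactic acid (adjusted p = 1.43e-09) and by 0.75 at 24 h without it (adjusted p = 0.000467), on the log2 scale.

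**Figure D4:**
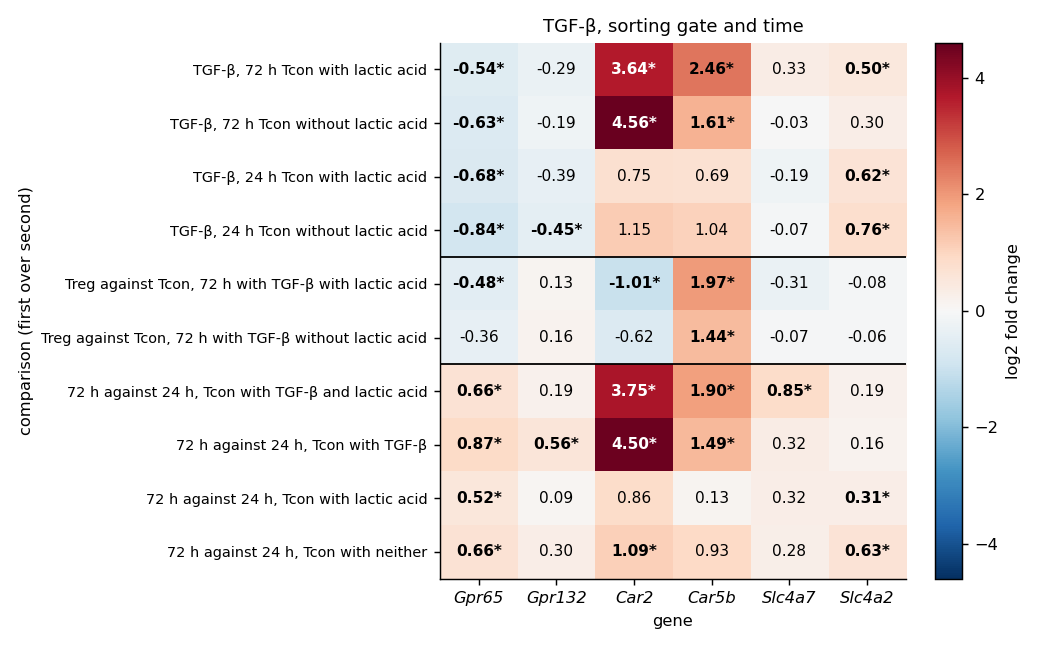
Log2 fold changes of each gene for TGF-beta over none (top block), Treg over Tcon (middle block) and 72 h over 24 h (lower block), with colour for sign and size and an asterisk where the adjusted p is below 0.05. Gpr65 is negative in all 4 TGF-beta rows and positive in all 4 time rows, and Car5b is positive in both Treg rows, at 1.97 and 1.44.

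Of the 6 genes, Car5b was called between sorted Treg and Tcon in both media, and Car2 and Gpr65 with lactic acid. With lactic acid 3 of 6 members were called, against 2.55% of all genes, and without lactic acid 1 of 6, against 0.216%. With the replicate block the counts were 4 and 2 of 6, against 12.7% and 2.94% of all genes. Car5b was at 11.9, 13.7 and 15.5 CPM in Treg with lactic acid, against 3.27, 2.98 and 4.16 CPM in Tcon, a 3.92-fold higher level with a log2 fold change of 1.97 ± 0.27 (adjusted p = 0.000191). Its log2 fold change ranked 40 from the highest among 14375 genes, and the call held with each library left out in turn. Without lactic acid the log2 fold change was 1.44 ± 0.27 (adjusted p = 0.0212), and it held in 1 of 6 fits that left out a library, the one without replicate 1 of Treg, with adjusted p up to 0.268, or 0.654 with the compared groups alone. Foxp3 differs between these gates by the sort itself. With lactic acid, mitochondrial genes held 0.889% of counts in Treg and 1.40% in Tcon. Without lactic acid, the summed level of the 6 erythroid markers averaged 0.233 CPM in Treg and 0.0785 CPM in Tcon. Their part in these differences was not tested.

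Car2 ran the other way. With lactic acid it was at 7.27, 7.97 and 6.10 CPM in Treg, against 12.8, 14.3 and 16.1 CPM in Tcon, without overlap, as held for 18.5% of all genes. The log2 fold change of -1.01 ± 0.26 was called (adjusted p = 0.0352) but was lost with any 1 of the 6 libraries left out (adjusted p 0.0633 to 0.17). Without lactic acid it was -0.62 (adjusted p = 0.633, or 0.0266 with the block). Gpr65 was lower in Treg with lactic acid, at -0.48 ± 0.11 (adjusted p = 0.0199), a call that held in 1 of 6 fits that left out a library, the one without replicate 3 of Tcon, with adjusted p up to 0.087, or 0.0503 with the compared groups alone. Without lactic acid it was at -0.36 (adjusted p = 0.329, or 0.056 with the block). For Slc4a7 the log2 fold change with lactic acid was -0.31 (adjusted p = 0.584, or 0.0157 with the block).

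Time in culture moved 4 of 6 members in Tcon with TGF-beta and lactic acid, against 47.4% of all genes, and 4 of 6 with TGF-beta alone, against 52.8%. It moved 2 of 6 with lactic acid, against 46.6%, and 3 of 6 with neither, against 45.5%. With the replicate block the counts were 5, 6, 3 and 5 of 6, against 61.7%, 65.9%, 61.2% and 58% of all genes in the same order. The share of members called is thus near the background for all genes. The summed level of the 6 CD4 T cell markers averaged between 1921 and 2377 CPM in the 4 Tcon groups at 72 h and between 2623 and 2965 CPM in the 4 at 24 h, and its part in these differences was not tested. Gpr65 was higher at 72 h than at 24 h in all 4 media, at log2 fold changes between 0.52 and 0.87. With TGF-beta it was at 54.1, 49.1 and 50.8 CPM at 72 h, against 28.0, 28.1 and 28.4 CPM at 24 h (adjusted p = 1.34e-06). Car2 rose by 4.50 ± 0.30 with TGF-beta and by 3.75 ± 0.32 with TGF-beta and lactic acid, on the log2 scale. With neither, its log2 fold change of 1.09 (adjusted p = 0.0401) rested on replicate 1 of the 72 h group. Without that library it was -0.25 and without all male libraries -0.59, each fit leaving 1 library in that group. It also lost its call without replicate 1 of the 24 h group (0.77, adjusted p = 0.174) and with the compared groups alone (adjusted p = 0.226).

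Gpr132 was called for time with TGF-beta alone, at 0.56 ± 0.13 (adjusted p = 0.00126), Slc4a7 with TGF-beta and lactic acid, at 0.85 ± 0.21 (adjusted p = 0.00185), and Slc4a2 with neither, at 0.63 ± 0.14 (adjusted p = 0.000686). Slc4a2 with lactic acid, at 0.31 ± 0.12 (adjusted p = 0.045), held in 1 of 6 fits that left out a library, the one without replicate 2 of 72 h Tcon with lactic acid, with adjusted p up to 0.223. It was also lost with DESeq2 (adjusted p = 0.0789), its scaling (0.0668), no filter on low counts (0.14) and no male libraries (0.127). Car5b was called for time with TGF-beta, at 1.49 ± 0.32 (adjusted p = 0.000559), and with TGF-beta and lactic acid, at 1.90 ± 0.32 (adjusted p = 3.62e-05). With the block, Slc4a7 was called for time in the other 3 media too (adjusted p = 0.00519 with TGF-beta, 0.00302 with lactic acid and 0.000307 with neither), as were Slc4a2 with TGF-beta and lactic acid (0.0186) and with TGF-beta (0.0482), and Gpr132 with neither (0.0484).

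In the order of group means, the leading 4 groups of Car2 did not overlap with their neighbours: 72 h Tcon with TGF-beta (42.0 CPM), 72 h Treg with TGF-beta (27.3 CPM), 72 h Tcon with TGF-beta and lactic acid (14.4 CPM) and 72 h Treg with TGF-beta and lactic acid (7.11 CPM). The leading 4 of Car5b were also apart, in the order 72 h Treg with TGF-beta and lactic acid (13.7 CPM), 72 h Treg with TGF-beta (7.44 CPM), 72 h Tcon with TGF-beta and lactic acid (3.47 CPM) and 72 h Tcon with TGF-beta (2.74 CPM). Of the 9 pairs of neighbouring groups, 5 were apart for Car5b, 4 each for Car2 and Gpr65, 1 each for Slc4a7 and Slc4a2 and 0 for Gpr132, where 10.4% of such pairs were apart over all genes tested. Gpr65 was highest in 72 h Tcon with lactic acid (82.3 ± 17.4 CPM, n = 3) and lowest in 24 h Tcon with TGF-beta (28.2 ± 0.23 CPM, n = 3).

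The genes whose levels ran most like each member were taken by the smaller of 2 Pearson correlations of log2 CPM, over the 12 libraries at 24 h and over the 17 at 72 h, among genes that averaged 5 CPM or more. Libraries of a group share their condition, so these values describe the pattern across conditions. Car2 ran most like Ikzf2, which encodes the transcription factor Helios, at 0.85 or more at both times, then Lgals3 (0.85) and Ccl1 (0.84). Car5b ran most like Acvrl1, which encodes a receptor of the TGF-beta superfamily, at 0.85, then Mob2 (0.80) and Irf2bpl (0.80). Gpr65 ran most like Gm19585 (0.93), the death ligand gene Fasl (0.92) and Nsmaf (0.92). Slc4a2 ran most like Rgs3 (0.95), Pcmtd1 (0.95) and Plp2 (0.94), Gpr132 most like Pdlim1 (0.82), Fosl1 (0.75) and Prag1 (0.74), and Slc4a7 most like Rif1 (0.82) and U2surp (0.81). Between members, Gpr65 and Slc4a2 ran in opposite directions at 24 h (-0.88) and less so at 72 h (-0.52), while Car2 and Slc4a2 ran together at both times (0.72 and 0.74).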

How the data were processed

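Polyadenylated RNA of 29 libraries in 10 groups was sequenced by the authors as 65-base single reads from strand-specific libraries, per the labels' protocols. The deposited files hold whole-number read counts per gene of Ensembl identifiers, 1 file per library. The submitters' processing notes name STAR 2.7.3a, HTSeq 0.12.4, DESeq2 1.30.1 and the build GRCm39; the annotation release and the strand setting of the counting were not given in the sources used here. Reads of antisense partners therefore cannot be set apart. Rows that name no gene were left out; reads of low mapping quality came to between 13.3% and 17.0%, and reads outside genes to between 5.72% and 11.2%, of all counts in a file. Symbols, chromosomes and exon lengths came from a GENCODE annotation of GRCm38, which matched 52081 of 55414 identifiers; promoters came from RefSeq on GRCm38.p6, with 5 of 6 members present.

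Counts were tested in edgeR 4.0.16 (R 4.3.3) by the quasi-likelihood test, with TMM scaling, a filter on low counts (minimum count 10, total 15), 1 fit over all groups and Benjamini-Hochberg adjustment over 14375 genes in each of 22 comparisons: lactic acid (5), TGF-beta (4), Treg against Tcon (2), time (4) and differences between effects (7). A group's mean ± SD is over its libraries; a log2 fold change ± is its SE; 95% intervals cover library spread. p-values measure only the spread between these libraries, since the labels do not say whether a group's libraries come from separate animals. Alternatives were DESeq2 1.42.0, its size-factor scaling, no filter, the compared groups alone, no male libraries, each library left out, and a block for libraries that share a replicate number and a time point. Same-numbered libraries of 1 time point deviated together, and in comparisons with 3 pairs every correlation of deviations from the group means was 0.12 or more. Libraries of different numbers reached at most 0.023 at 24 h. At 72 h they reached up to 0.506, in some comparisons above the lowest same-numbered value. For lactic acid in 72 h Tcon with TGF-beta these 2 values were 0.245 and 0.179. The block took the numbers as pairs within a time point, and block values stand where they change a call. Between time points same-numbered correlations lay between -0.06 and 0.15. The pairing comes from the replicate number and mouse sex in the labels. The fits were tested on simulated counts.

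The 6 members and all gene lists were chosen with earlier results of these data known. Named genes are the members, list genes called with lactic acid, otherwise at most 4 of a list by mean level, and the 3 genes most like each member, some of which are not reported here; markers named beside Car2 were chosen after their values were seen.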

Additional observations from a re-analysis of the deposited data

Results flagged for a closer look

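For 3 results, the effect of TGF-beta differed between 72 h and 24 h in Tcon by a test of the difference itself. The TGF-beta effect on Car2 at 72 h exceeded that at 24 h by 3.41 without lactic acid (edgeR adjusted p = 0.000393, log2 scale), and by 2.89 with lactic acid (adjusted p = 0.00138). The TGF-beta effect on Car5b at 72 h exceeded that at 24 h by 1.77 with lactic acid (adjusted p = 0.0296). Among all genes, 5.73% passed the same test without lactic acid and 14.4% with it. Groups held at most 3 libraries, so no library was tested as standing apart from its group.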

How the results depend on the processing

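The number of genes called among all 14375 depended on the processing. As reported it was 504 for lactic acid in Treg, 311 for lactic acid in 72 h Tcon with TGF-beta, 10 for lactic acid in 72 h Tcon without TGF-beta, 33 for lactic acid at 24 h with TGF-beta, 12 for lactic acid at 24 h without TGF-beta, 3517 for TGF-beta at 72 h without lactic acid, 1788 for TGF-beta at 24 h with lactic acid, 1625 for TGF-beta at 24 h without lactic acid, 366 for Treg against Tcon with lactic acid, 31 for Treg against Tcon without lactic acid, 6538 for time with neither, 15 for the 72 h difference of lactic acid effects by TGF-beta, 4 for the difference of lactic acid effects by time with TGF-beta, 0 for the difference of lactic acid effects by time without TGF-beta, 823 for the difference of TGF-beta effects by time without lactic acid, 2068 for the difference of TGF-beta effects by time with lactic acid. With the replicate block it was 2833 for lactic acid in Treg, 2211 for lactic acid in 72 h Tcon with TGF-beta, 492 for lactic acid in 72 h Tcon without TGF-beta, 963 for lactic acid at 24 h with TGF-beta, 614 for lactic acid at 24 h without TGF-beta, 6526 for TGF-beta at 72 h without lactic acid, 4655 for TGF-beta at 24 h with lactic acid, 4562 for TGF-beta at 24 h without lactic acid, 1832 for Treg against Tcon with lactic acid, 422 for Treg against Tcon without lactic acid, 652 for the 72 h difference of lactic acid effects by TGF-beta, 483 for the difference of lactic acid effects by time with TGF-beta, 674 for the difference of lactic acid effects by time without TGF-beta, 2794 for the difference of TGF-beta effects by time without lactic acid, 4831 for the difference of TGF-beta effects by time with lactic acid. Without the male libraries it was 1089 for lactic acid in Treg, 835 for lactic acid in 72 h Tcon with TGF-beta, 2 for lactic acid in 72 h Tcon without TGF-beta, 88 for lactic acid at 24 h with TGF-beta, 21 for lactic acid at 24 h without TGF-beta, 3100 for TGF-beta at 24 h with lactic acid, 3161 for TGF-beta at 24 h without lactic acid, 895 for Treg against Tcon with lactic acid, 128 for Treg against Tcon without lactic acid, 66 for the 72 h difference of lactic acid effects by TGF-beta, 54 for the difference of lactic acid effects by time with TGF-beta, 1411 for the difference of TGF-beta effects by time without lactic acid, 3327 for the difference of TGF-beta effects by time with lactic acid. With the compared groups alone it was 16 for lactic acid in Treg, 38 for lactic acid in 72 h Tcon with TGF-beta, 0 for lactic acid in 72 h Tcon without TGF-beta, 90 for lactic acid at 24 h with TGF-beta, 146 for lactic acid at 24 h without TGF-beta, 1058 for TGF-beta at 72 h without lactic acid, 3305 for TGF-beta at 24 h with lactic acid, 3856 for TGF-beta at 24 h without lactic acid, 193 for Treg against Tcon with lactic acid, 0 for Treg against Tcon without lactic acid, 1 for the 72 h difference of lactic acid effects by TGF-beta, 0 for the difference of lactic acid effects by time with TGF-beta, 545 for the difference of TGF-beta effects by time without lactic acid. With DESeq2 it was 490 for lactic acid in 72 h Tcon with TGF-beta, 58 for lactic acid in 72 h Tcon without TGF-beta, 91 for lactic acid at 24 h with TGF-beta, 56 for lactic acid at 24 h without TGF-beta, 74 for Treg against Tcon without lactic acid, 52 for the 72 h difference of lactic acid effects by TGF-beta, 19 for the difference of lactic acid effects by time with TGF-beta, 18 for the difference of lactic acid effects by time without TGF-beta. With no filter on low counts it was 543 for lactic acid in 72 h Tcon with TGF-beta, 65 for lactic acid in 72 h Tcon without TGF-beta, 37 for lactic acid at 24 h without TGF-beta, 95 for Treg against Tcon without lactic acid, 47 for the 72 h difference of lactic acid effects by TGF-beta, 16 for the difference of lactic acid effects by time with TGF-beta, 22 for the difference of lactic acid effects by time without TGF-beta. With DESeq2 size-factor scaling it was 21 for lactic acid at 24 h with TGF-beta, 1 for lactic acid at 24 h without TGF-beta. With each library left out in turn it ran from 138 to 630 for lactic acid in Treg, 111 to 318 for lactic acid in 72 h Tcon with TGF-beta, 0 to 270 for lactic acid in 72 h Tcon without TGF-beta, 4 to 24 for lactic acid at 24 h with TGF-beta, 1 to 2 for lactic acid at 24 h without TGF-beta, 976 to 1756 for TGF-beta at 24 h with lactic acid, 926 to 1543 for TGF-beta at 24 h without lactic acid, 100 to 369 for Treg against Tcon with lactic acid, 2 to 50 for Treg against Tcon without lactic acid, 3973 to 6760 for time with neither, 6 to 30 for the 72 h difference of lactic acid effects by TGF-beta, 0 to 3 for the difference of lactic acid effects by time with TGF-beta, 0 to 40 for the difference of lactic acid effects by time without TGF-beta, 534 to 1007 for the difference of TGF-beta effects by time without lactic acid.

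The causes of these shifts were not tested. Each fit that left libraries out also held fewer libraries. Of 132 log2 fold changes of the members, 128 kept their direction and their side of the threshold with DESeq2, 130 with its scaling, 128 with no filter, 109 with the block and 104 without the male libraries, as did 120 of 127 with the compared groups alone and 910 of 1008 with 1 library left out. The block added 21 calls, named above, and lost 0; uncalled values changed sign in 2 cases with the block, in 16 cases without the male libraries and in 58 with 1 library left out. Leaving out 1 library added a call for Car5b with lactic acid in Treg (without replicate 1 with lactic acid or replicate 2 without it, adjusted p = 0.0498 and 0.0399). It added calls for Gpr132 with TGF-beta at 24 h with lactic acid and for time with both agents (without replicate 3 of 24 h Tcon with both, adjusted p = 0.00252 and 0.0132). Slc4a7 for time with TGF-beta and Slc4a2 in the difference of TGF-beta effects without lactic acid were added too (without replicate 1 of 72 h Tcon with TGF-beta, adjusted p = 0.0441 and 0.0411). For Car2 with lactic acid at 72 h without TGF-beta, a fit that left 1 library in the group with neither moved the log2 fold change to -1.35. 1 called value reversed: Car2 for time with neither was -0.59 without the male libraries and -0.25 without replicate 1 of the 72 h group, the lowest of -0.25 to 1.77 over the libraries left out. Member levels moved by at most 3.17% with another scaling, and 59 of 60 stayed within 1 SD under each. Depth limits Car2 and Car5b where counts were near 4 to 30.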
